A study of Homo sapiens with 2 samples.

Results

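The genes described here are the human zinc finger genes whose symbol is ZNF followed by a number below 300. They were chosen by symbol alone, as the probe sets that carried exactly 1 gene symbol of that form in the platform annotation, which gave 133 genes and 339 probe sets of 18132 named genes and 49292 probe sets. Their mRNAs were measured among the RNA that came down with the RNA-binding protein QKI in SW480, an established human colorectal cancer cell line. Cells given siRNA against the lncRNA NONHSAT136151 (siLnc, 1 array) were set against cells given negative control siRNA (siNC, 1 array), to ask how loss of the lncRNA alters which mRNAs QKI holds. Both received 100 pmol of siRNA and were collected 48 h later, and the RNA of both was recovered with an anti-QKI antibody and hybridised to PrimeView arrays. Since each condition has a single array, the differences have no check by replicates, their precision is unknown, and no p-value is given. A lower amount of an mRNA in the cell and a weaker hold of QKI on it cannot be told apart, since neither the input RNA nor an IgG precipitate was analysed here.

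Most ZNF genes encode transcription factors built from repeated C2H2 zinc fingers, in which a zinc ion folds a short loop that reads DNA. Many carry a KRAB domain at the other end of the protein, which recruits the corepressor TRIM28 and through it the histone methyltransferase SETDB1 and heterochromatin proteins. A smaller group carries a SCAN domain, through which these proteins pair with each other. KRAB zinc finger genes arose by repeated duplication, lie in clusters on chromosome 19 above all, and are known for silencing retrotransposons. Their mRNAs are usually scarce.

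No ZNF gene numbered below 300 differed 2-fold between the precipitates. The values are log2 signals, so that a difference of 1 is 2-fold, and the value of a gene is the mean over its probe sets. In siLnc 0 of the 133 genes reached a 2-fold higher signal, beside 0.651% of all genes, and 0 a 2-fold lower one, beside 0.121% of all genes. Among their 339 probe sets, 0 reached 2-fold higher, beside 1.51% of all probe sets, and 0 reached 2-fold lower, beside 0.185%. At the background shares of genes few members would reach the threshold in any case, so the gene counts of 0 set the family apart from nothing. The share of higher probe sets, 1.51%, is larger, and some of the 339 would reach 2-fold at that share. Whether the probe set count of 0 sets the family apart was not tested, and probe sets of 1 gene are not independent. Cyclic loess between the arrays put 1 probe set of ZNF180 at 1.04 (0.97 before) and 1 of ZNF213 at -1.04 (-0.90 before), while the gene means stayed below 2-fold.

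The gene differences ran from -0.67 to 0.85, with a median of 0.00 and quartiles at -0.13 and 0.20. The 95% interval of that median from order statistics, which describes only the spread among these genes, was -0.06 to 0.05. In all, 62 genes lay above 0, 6 at 0 and 65 below 0. Over the 17999 other named genes the median was -0.06 with quartiles at -0.22 and 0.15. The share above 0 was 46.6% for the ZNF genes and 39.2% for the other genes. After cyclic loess these shares were 58.6% for the ZNF genes and 46.4% for all genes. The quartiles of the members thus lay nearly as far apart as those of the other genes, a little higher.

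At a lower size, a log2 difference of 0.5, 7 members (5.26%) were higher in siLnc, beside 6.47% of all genes, and 2 (1.5%) were lower, beside 3.56%. The higher ones, listed because of their size, were ZNF180, ZNF184, ZNF281, ZNF200, ZNF207, ZNF35 and ZNF267, and the lower ones ZNF224 and ZNF213. Of these 9 genes, 5 (ZNF180, ZNF281, ZNF207, ZNF35 and ZNF213) had a probe set whose brighter array was at or above 4.74, and in 3 of them (ZNF207, ZNF281 and ZNF213) the gene mean was too. This background limit is the log2 signal below which lay, in siNC, 95% of 106 probe sets whose genes were listed for cell types that a colorectal epithelial culture lacks. The median of these probe sets in siNC was 2.325, so the limit rests on the brightest few. ZP3, a gene of that list, lay above it on both arrays, at 6.27 in siLnc and 6.205 in siNC. Below the limit a signal may be background, and a difference has no exact size. At 1.5-fold, 6 members (4.51%) were higher, beside 4.26% of all genes, and 1 (0.752%) was lower, beside 1.75%. At the same threshold 17 of their probe sets (5.01%) were higher, beside 7.23% of all probe sets, and 8 (2.36%) were lower, beside 2.58%.

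Low signal was general in this family but not particular to it. The median log2 signal over the 133 genes was 3.10 in siLnc and 3.12 in siNC, with a range from 1.23 to 8.40 in siLnc and from 1.32 to 8.31 in siNC. Over the 17999 other named genes the medians were 3.38 in siLnc and 3.43 in siNC. ZNF genes numbered 300 and above were dimmer, at 2.83 on both arrays, and ZBTB genes had 3.205 on both. At least 1 probe set reached the limit on its brighter array in 48 genes (36.1%), against 46.8% of the other genes, so that 85 members had none above it. As the mean over probe sets, which dim probe sets pull down, the brighter array reached it in 29 genes (21.8%), against 31.4% of the other genes, and both arrays in 24. The difference between the arrays itself followed signal, as the plot of difference by signal shows, so the members were also read against genes of like brightness.

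**Figure D1:**
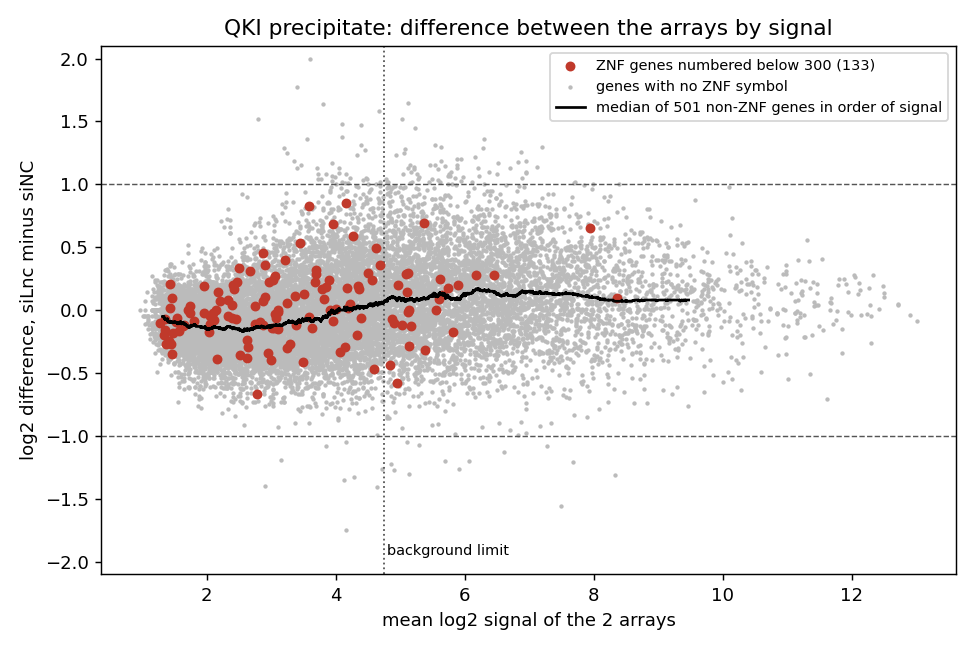
Log2 difference (siLnc minus siNC) against the mean log2 signal of the 2 arrays, with 1 point per gene: red for the 133 ZNF genes numbered below 300, grey for genes with no ZNF symbol, and a black line for their running median. Dashed lines mark 2-fold and the dotted line the background limit of 4.74; 10 genes beyond a difference of 2 in size are not drawn. All red points lie between the dashed lines.

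For each gene, the median difference of the 500 genes with no ZNF symbol nearest in mean signal was subtracted. The members then had a median of 0.07 (order-statistic interval 0.02 to 0.12), and 84 of 133 (63.2%) lay above 0. For the 17999 other genes this share was 49.8% and the median 0.00. Among the 104 genes with a mean below the limit the signal-adjusted median was 0.09 and 70 lay above 0, while among the 29 genes with a mean at or above it the median was -0.01 and 14 lay above 0. Split instead by whether any probe set reached the limit, it was 0.06 over 48 genes, 29 of them above 0, and 0.08 over 85 genes, 55 of them above 0. With dim probe sets left out altogether, the 48 genes had a signal-adjusted median of 0.00.

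Set out by signal, the members lay closest to the other genes at both the dimmest signals and the middle ones. At a mean signal below 2, 24 members had a median difference of -0.10, against -0.11 for 3549 genes with no ZNF symbol. From 2 to 3 it was -0.05 over 35 members, against -0.15 over 3974 genes. From 3 to 4 it was 0.05 over 31 members and -0.09 over 2895 genes, and these were the bands in which members stood above genes of the same brightness. From 4 to 5 the medians were 0.03 over 22 members and 0.04 over 2475 genes, and from 5 to 6 they were 0.09 over 17 members and 0.09 over 1867 genes. Only 4 members had a mean signal of 6 or more, with differences from 0.09 to 0.65, so no level is read from that band.

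**Figure D2:**
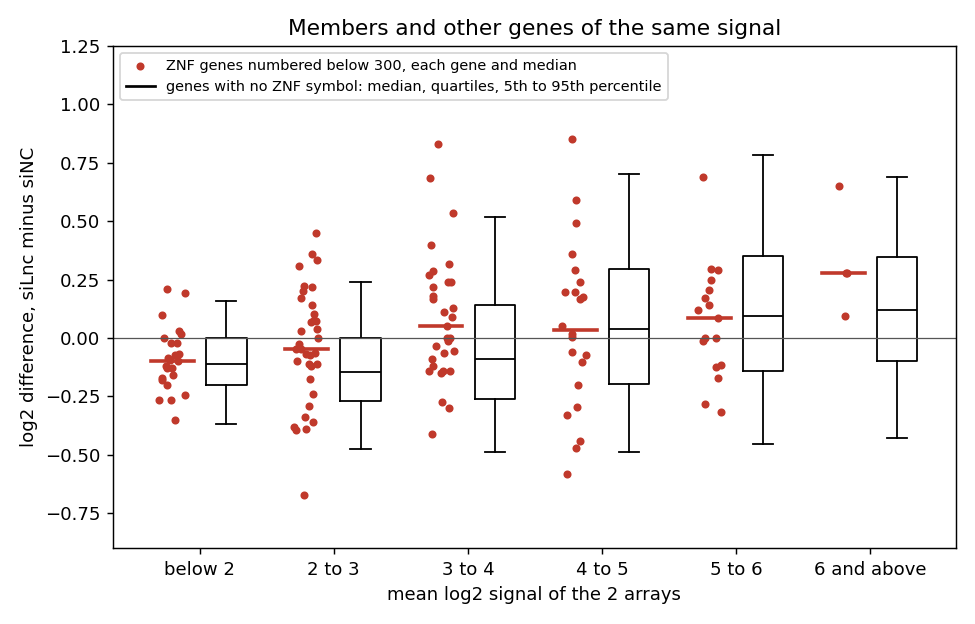
Log2 difference by band of mean log2 signal. Red points are ZNF genes numbered below 300 with a red bar at their median; boxes beside them show genes with no ZNF symbol (median, quartiles, whiskers at the 5th and 95th percentile). The red median stands above the box median from 2 to 3 (-0.05 against -0.15) and from 3 to 4 (0.05 against -0.09).

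Other zinc finger families gave similar values. ZNF genes numbered 300 and above had a signal-adjusted median of 0.06 (318 genes, 57.2% above 0), and 1 of them was at least 2-fold higher. ZBTB genes, whose proteins join zinc fingers to a BTB domain, had 0.04 over 42 genes. ZSCAN and ZKSCAN genes, which carry a SCAN domain, had 0.05 over 27 genes. The intervals of these medians overlap that of the ZNF genes numbered below 300, and no difference between families was tested.

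Among the 29 members whose gene mean reached the limit, ZNF281 and ZNF207 had the largest positive mean differences. ZNF281, a transcription factor of stem cell and epithelial-mesenchymal programmes, had a log2 signal of 5.72 in siLnc and 5.03 in siNC. Its difference was 0.69, and its 3 probe sets gave 0.46, 0.74 and 0.87. ZNF207 encodes a mitotic protein (BuGZ) that loads the checkpoint protein BUB3 at kinetochores, a role unlike that of the DNA-binding repressors. It had 8.27 in siLnc and 7.62 in siNC, a difference of 0.65 from 3 probe sets at 0.53, 0.65 and 0.77. Both genes were thus higher in siLnc in every probe set, below 2-fold, and 93.6% and 94.4% of the 500 genes of the same signal had a lower difference than they had.

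The other positive gene means in this set were smaller. ZNF189 had 4.88 in siLnc and 4.39 in siNC (0.49), but its brightest probe set, at 6.55 and 6.40, gave 0.15. ZNF251 had 4.86 in siLnc and 4.50 in siNC (0.36, 1 probe set). ZNF45, ZNF212, ZNF263, ZNF227, ZNF92 and ZNF22 lay between 0.20 and 0.30. All of these except ZNF22 carry a KRAB domain. Of this group ZNF227 was the brightest, with 6.59 in siLnc and 6.31 in siNC. ZNF263, which binds many promoters and also carries a SCAN domain, had 6.31 in siLnc and 6.03 in siNC.

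The most negative gene mean among these 29 belonged to ZNF213, a gene with both SCAN and KRAB domains. Its signal was 4.65 in siLnc and 5.24 in siNC, a difference of -0.58 over 8 probe sets, all of which were lower in siLnc (-0.90 to -0.21). Its brightest probe set had 6.75 in siLnc and 7.52 in siNC (-0.77). Of the 500 genes of the same signal, 2.6% had a lower difference. ZNF165, a SCAN gene expressed mainly in testis, had 4.36 in siLnc and 4.83 in siNC (-0.47), and ZNF18, another gene with SCAN and KRAB domains, had 4.62 in siLnc and 5.06 in siNC (-0.44). Each is read by 1 probe set, which lay below the limit in siLnc only. ZNF83 followed at -0.32 and ZNF277 at -0.28, both lower in every probe set. ZNF219, ZNF140, ZNF142, ZNF226 and ZNF275 lay between -0.17 and -0.07, with probe sets on both sides of 0.

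**Figure D3:**
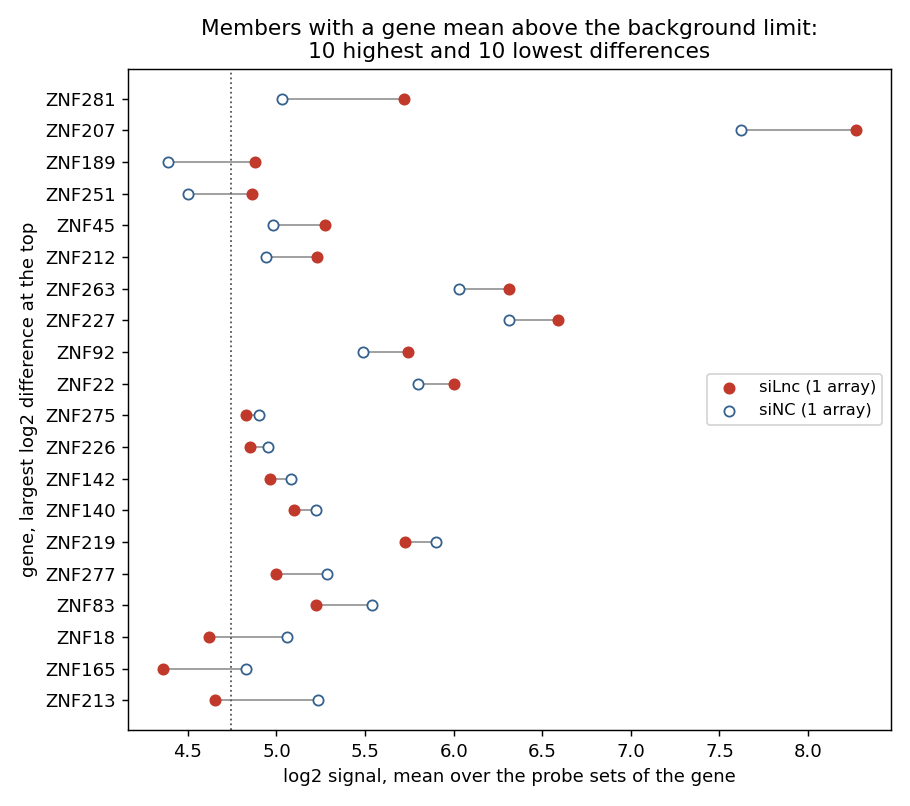
Log2 signal in siLnc (filled red) and siNC (open blue) for the 10 members with the highest and the 10 with the lowest mean difference among the 29 whose gene mean reached the background limit of 4.74 on the brighter array (dotted line). The gap is largest for ZNF281 (5.72 and 5.03) and ZNF207 (8.27 and 7.62) at the top and for ZNF213 (4.65 and 5.24) at the bottom.

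Outside the rule for named genes, the extremes of the whole family are given because of their values. ZNF180, a KRAB gene, had 4.59 in siLnc and 3.74 in siNC, a difference of 0.85 from probe sets at 0.73 and 0.97. ZNF184, also a KRAB gene, had 4.00 in siLnc and 3.17 in siNC (0.83, 1 probe set). ZNF224, a KRAB repressor first studied on the aldolase A promoter, had 2.44 in siLnc and 3.11 in siNC (-0.67, 1 probe set). The only probe sets of ZNF184 and ZNF224 lay below the limit on both arrays. For ZNF180 the probe set at 0.73 reached the limit in siLnc, with 4.97 in siLnc and 4.24 in siNC, and the other did not. ZNF35, a zinc finger gene without KRAB, had a probe set above the limit on both arrays, at 5.55 in siLnc and 4.98 in siNC (0.57), beside a dim one at 0.61. Taken by single probe sets with a brighter array at or above the limit, the widest values belonged to ZNF281 at 0.87 and ZNF202 at 0.80, with 4.76 in siLnc and 3.96 in siNC, and to ZNF91 at -0.91, with 4.04 in siLnc and 4.95 in siNC, and ZNF213 at -0.90. Those of ZNF202 and ZNF91 reached the limit on 1 array only. Of the 133 members, 5 lay outside the central 95% of their 500 neighbours in signal: ZNF180, ZNF182 and ZNF184 above, ZNF208 and ZNF224 below. A central 95% leaves some genes outside by its definition. This count is thus not read as an excess, nor as a result about these 5 genes.

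The brightest member was ZNF146, a protein made almost wholly of zinc fingers, with 8.40 in siLnc and 8.31 in siNC. Its difference of 0.09 came from probe sets at -0.06, 0.01 and 0.33, the 2 brighter of which were nearly equal on both arrays. This mean was -0.04 after cyclic loess, on the other side of 0. ZNF12 had 5.83 in siLnc and 5.65 in siNC, and its 4 probe sets lay between 0.14 and 0.20. ZNF32 had 5.70 in siLnc and 5.58 in siNC (0.12, but -0.04 after quantile normalization). The abundant members thus included genes with hardly any difference beside ZNF207.

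Members with known roles were spread over both directions. Of the silencers of retrotransposons, ZNF91, which acts on SVA elements, had 2.80 in siLnc and 3.19 in siNC (-0.40), from probe sets at -0.91 and 0.12. ZNF93, which acts on L1 elements, had 2.81 in siLnc and 2.93 in siNC (-0.12). ZNF10, the source of the KRAB domain of common gene-silencing tools, had 2.49 in siLnc and 2.78 in siNC (-0.29). ZNF274, which brings SETDB1 to zinc finger gene clusters, had 3.33 in siLnc and 3.45 in siNC (-0.12), and ZNF282 had 3.27 and 3.22 (0.05). Their gene means lay below the limit, but 3 of them had a probe set that reached it. That of ZNF91 was its probe set at -0.91, above the limit in siNC only. That of ZNF274 had 5.57 in siLnc and 5.67 in siNC (-0.10), and that of ZNF282 had 5.56 in siLnc and 5.55 in siNC (0.01).

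ZNF143, which binds promoters and the anchors of chromatin loops, had 3.09 in siLnc and 2.73 in siNC (0.36). ZNF148, a factor of GC-rich promoters read by 9 probe sets, had 4.65 in siLnc and 4.36 in siNC (0.29), with 7 probe sets above 0. The 4 of its probe sets that lay above the limit on both arrays gave 0.33 to 0.45. ZNF217, an oncogene amplified in breast cancer, had 3.79 in siLnc and 3.57 in siNC (0.22). Its bright probe set gave 6.94 in siLnc and 6.37 in siNC (0.57), whereas the others lay at or below 2.94 on both arrays. ZNF24, a SCAN gene, had 0.24, and ZNF131, a BTB gene, had 0.20, from probe sets at 0.43 and -0.04. No probe set of ZNF143, ZNF24 or ZNF131 reached the limit.

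ZNF106, an RNA-binding protein, had 5.07 in siLnc and 4.87 in siNC (0.20), with 0.50 in its brightest probe set. ZNF292, a very large transcription factor, had 4.01 in siLnc and 4.00 in siNC. Its 5 probe sets ran from -0.52 to 0.49, so the mean of 0.01 covers opposite values. ZNF185, a LIM-domain protein of the actin cytoskeleton despite its symbol, had 2.31 in siLnc and 2.35 in siNC (-0.05, but 0.03 after cyclic loess).

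Probe sets of the same gene often disagreed. Of 97 members read by 2 or more probe sets, 20 had all of them above 0, 21 had all of them below 0, 41 had them on both sides, and 15 had at least 1 at exactly 0 and no opposite signs. The median range within a gene was 0.34, and the widest was 1.06, in ZNF202, a SCAN and KRAB repressor of lipid genes, whose 4 probe sets ran from -0.26 to 0.80. ZNF234 and ZNF3 were also among the widest. The median range was thus larger than most of the gene means. Of 57 members with 3 or more probe sets, 10 were above 0 in all of them and 5 below 0 in all. Those above included ZNF12, ZNF175, ZNF207, ZNF267 and ZNF281, and those below were ZNF10, ZNF213, ZNF257, ZNF276 and ZNF277. The same counts over all genes are not given here, so neither agreement nor disagreement is read as a trait of the family.

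**Figure D4:**
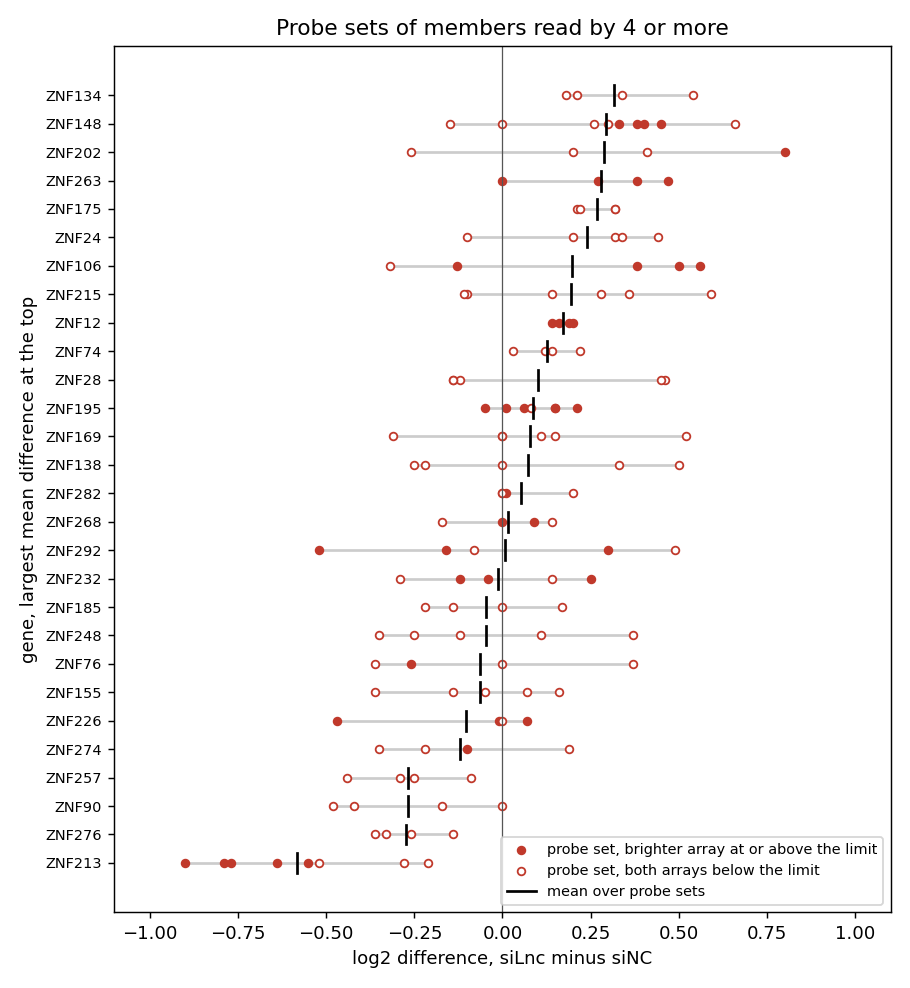
Log2 difference (siLnc minus siNC) of each probe set of the 28 members read by 4 or more, filled where the brighter array reached the background limit and open where it did not, with a black bar at the mean of the gene. ZNF213 lies wholly below 0 (-0.90 to -0.21) and ZNF12 in a narrow range above it (0.14 to 0.20), while ZNF202 and ZNF292 spread over both sides.

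Many probe sets had the same value on both arrays. Of the 339 member probe sets, 36 (10.6%) differed by exactly 0.00, against 9.07% of all probe sets, while only 147 of all 49292 differed by 0.01 and 129 by -0.01, compared with 4471 at 0.00. ZNF273 was equal on both arrays in all 3 probe sets, and ZNF7, ZNF70, ZNF100, ZNF107 and ZNF205 in their only one. The cause was not tested, and an equal value is therefore not read as a precise absence of difference. Without these probe sets the median of the 127 remaining members was -0.02.

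By domain, a KRAB domain was assigned to 96 members from general knowledge and not from the files, and 29 were assigned none. The remaining 8 were left unassigned. The KRAB genes had a median difference of 0.00 (quartiles -0.13 and 0.17), and the genes without KRAB 0.09 (-0.14 and 0.22). These classes also differed in brightness, with a median signal of 2.87 for KRAB genes and 4.26 for the others. Against genes of the same signal the order turned, with 0.09 for KRAB genes (62 of 96 above 0) and 0.05 for the others (18 of 29). After cyclic loess the medians were 0.06 and 0.01. No order between the classes is read from this. The 11 SCAN genes, among them ZNF213, ZNF165 and ZNF18, had a median of -0.01 with 6 below 0, and ranged from -0.58 to 0.29.

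By position, RefSeq placed 59 members on chromosome 19 and 74 elsewhere. Those on chromosome 19 had a median difference of -0.07 with 34 below 0, and the others 0.01 with 31 below 0. The brightness of the groups differed again, at medians of 2.87 and 3.59, and 6 of the 59 gene means reached the limit against 23 of the 74. Against genes of the same signal the medians were 0.04 and 0.10. After cyclic loess the chromosome 19 median was 0.01.

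**Figure D5:**
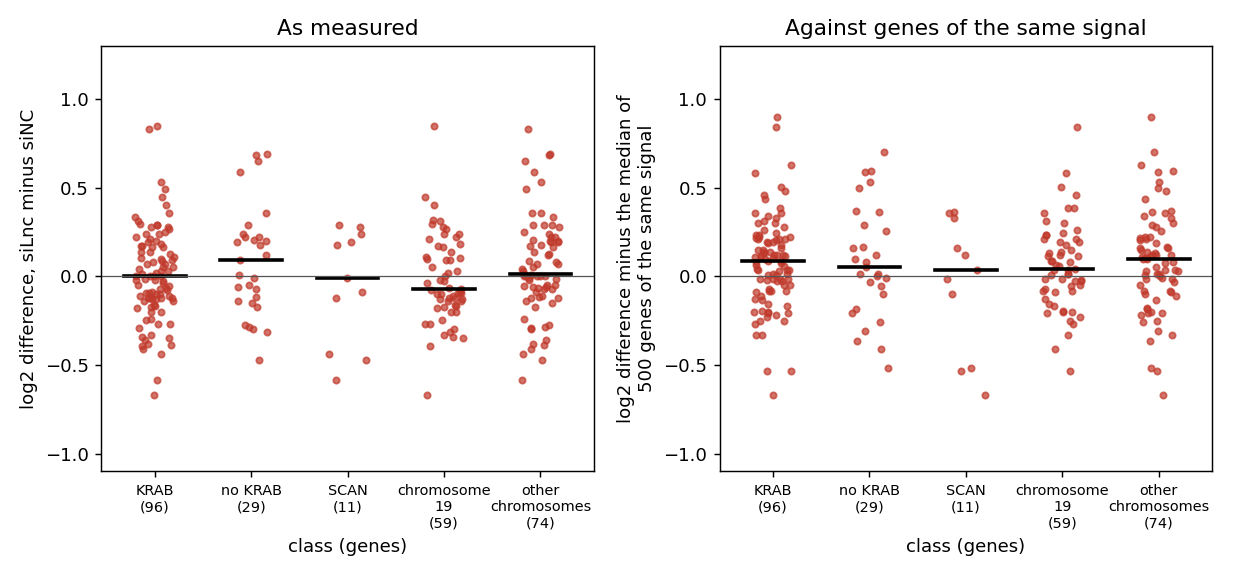
Members by class, with 1 point per gene and a black bar at the median, for the log2 difference (left) and for that difference minus the median of 500 genes of the same signal (right). On the left the medians run from -0.07 (chromosome 19) to 0.09 (no KRAB); on the right they lie between 0.03 and 0.10.

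Neighbouring genes had differences in both directions. In 11 runs of 3 or more members that follow each other closely on a chromosome, 68 genes in all, every run held genes above and below 0. In some runs 1 side rested on a value near 0, as with ZNF136 (-0.03) and ZNF43 (0.02). Over all members 62 lay above 0 and 65 below, so mixed runs are not read as a trait of the clusters. The longest, 19 genes on chromosome 19 from ZNF283 to ZNF180, ran from -0.67 in ZNF224 to 0.85 in ZNF180, with 7 genes above 0 and 12 below. ZNF223, close to ZNF224 in this run, had 0.40. A run of 5 genes on chromosome 16 (ZNF205, ZNF213, ZNF200, ZNF263 and ZNF174) held ZNF213 at -0.58 and ZNF200 at 0.69. Only 3 of the 19 gene means in the longest run reached the background limit, and 3 of the 5 on chromosome 16. ZNF223, ZNF224 and ZNF200 had no probe set that reached it, so their differences have no exact size. Members of such clusters are similar in sequence. Probe sets marked as able to bind other transcripts (s_at or x_at) made up 25 and 78 of the member probe sets, and another 10 probe sets that carry a member's symbol beside a further entry (-0.58 to 0.58) were not used. ZNF20, ZNF98 and ZNF177 are read only by such probe sets and have no value here.

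The partners of KRAB proteins were brighter than the ZNF genes themselves and were also below 2-fold as gene means. Of 31 listed corepressor genes, 29 were measured, with 0 gene means at least 2-fold higher and 0 lower, at the background shares of 0.651% and 0.121% of all genes. A single probe set went past 2-fold in PPHLN1, beside 1.51% of all probe sets at least 2-fold higher and 0.185% lower. It is not read as a result about PPHLN1 or the list. The brightest probe set of PPHLN1 had 6.97 in siLnc and 5.91 in siNC (1.06), while the gene mean over 9 probe sets was 0.45. Of the 29 gene means, 19 (65.5%) lay above 0 and 10 below, against 58.7% above 0 among 1867 genes with no ZNF symbol at a signal of 5 to 6. That band matches only the median signal of the list, which ran from 2.26 in ATF7IP2 to 10.55 in SUMO2. Among genes with no ZNF symbol the share was 38.6% from 3 to 4 and 64.5% at 6 and above. The median of the list was 0.19 (order-statistic interval -0.04 to 0.27) at a median signal of 5.46, and 0.06 against genes of the same signal. After cyclic loess the median was 0.08, and after quantile normalization 0.07. TRIM28, the protein that KRAB domains bind, had 7.42 in siLnc and 7.23 in siNC (0.19, 1 probe set). SETDB1 had 3.47 in siLnc and 3.84 in siNC (-0.37), both below the limit. MORC2, which compacts silenced chromatin with the HUSH complex, had 5.73 in siLnc and 5.15 in siNC (0.58), and the heterochromatin protein gene CBX1 had 8.25 and 7.76 (0.49). At the other end MTA1, of the NuRD deacetylase complex, had 5.99 in siLnc and 6.46 in siNC (-0.47, 3 probe sets all lower).

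The identity of the cells was checked on 10 markers of colorectal epithelium. EPCAM, KRT8, KRT18, KRT19 and CDX2 lay above the limit on both arrays, while CDH1, VIL1, KRT20, CEACAM5 and LGR5 did not as gene means. CDH1 had a probe set above it on both arrays, at 5.95 in siLnc and 5.88 in siNC, beside one at 1.80 on both, and the other 4 genes had none. The differences of the 10 markers ran from -0.95 in CDX2 to 0.10 in KRT18, with a median of -0.12. CDX2 had 6.22 in siLnc and 7.17 in siNC, from 1 probe set. A list of 12 gland and blood genes, chosen earlier for its high values in these data, ranged from 4.28 to 10.09 in siLnc and from 1.88 to 5.64 in siNC, and all 12 were at least 2-fold higher in siLnc. Its part in the values of the ZNF genes was not tested. Over all probe sets the median log2 signal was 3.29 in siLnc and 3.32 in siNC.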

How the data were processed

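QKI-bound RNA of SW480 cells was measured on 1 PrimeView array per condition. The authors deposited log2 signals with 2 decimals per probe set. The submitters' processing notes name GCOS. The sources used here do not say how background, summarisation and normalization were handled, so a shift shared by all genes would not be seen. The log2 scale was inferred from the range of the values. Of 49371 probe sets, 79 controls were left out, and 44988 carried 1 symbol. Symbols of all 133 members were found in RefSeq by gene identifier, with 0 changed, and chromosomes and gene order came from RefSeq. Coordinates are left out. The difference is siLnc minus siNC. The neighbour runs joined members whose starts lay within 500000 bases.

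The members and lists were chosen with earlier results of these data known. Named genes were all members past 2-fold, the 10 highest and 10 lowest with a gene mean at or above the background limit on the brighter array, the 8 brightest, 18 with set roles, and 4 with the widest range over 3 or more probe sets, 39 in all. Domain classes were planned from protein sequences, which were not used here, so KRAB and SCAN were assigned by hand after the values were seen, and the number of fingers was not analysed. Steps were tested on simulated data. Python 3.11.15, numpy 2.4.6, pandas 2.3.3, scipy 1.17.1, matplotlib 3.10.9, R 4.3.3 and limma 3.58.1 were used. Alternatives were normalization, filters on dim probe sets, the value of a gene, the fold threshold and the number of genes of the same signal.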

Additional observations from a re-analysis of the deposited data

How the results depend on the processing

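No paired analysis was possible because each condition has 1 array. The count of 0 genes at 2-fold in either direction held under cyclic loess, quantile normalization, median centring, both filters, the brightest or median probe set and a 3-fold threshold. At 1.5-fold, 6 genes and 17 probe sets were higher and 1 gene and 8 probe sets lower, beside 4.26% of all genes and 7.23% of all probe sets higher and 1.75% and 2.58% lower. Cyclic loess gave 1 probe set at least 2-fold higher and 1 lower, median centring 1 higher (ZNF180), and quantile normalization 1 lower (ZNF213).

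The median difference was 0.093 over 87 genes when the brighter array had to reach its median and 0.11 over 48 genes at or above the background limit, where the signal-adjusted median was 0.00. Both filters leave fewer and brighter genes, and the cause of the shifts was not tested. The share of members above 0 was 58.6% after cyclic loess, beside 46.4% of all genes, 59.8% with the first filter and 62.5% with the second. The share of all genes under the 2 filters is not given here. Without filters, the share above 0 among genes with no ZNF symbol rose with signal. It was 38.6% from 3 to 4, 53.6% from 4 to 5, 58.7% from 5 to 6 and 64.5% at 6 and above. The filtered shares are thus not read as a rise of the family. The signal-adjusted median otherwise stayed between 0.05 and 0.12. None of 195 values of the 39 named genes reached 2-fold, though 7 of them, all within 0.20 of 0, took a value of 0 or the opposite sign under at least 1 alternative (ZNF32, ZNF131, ZNF146, ZNF185, ZNF234, ZNF275 and ZNF292), and 6 of 45 class medians left their interval. All 6 were under the filters on dim probe sets. Leaving out s_at and x_at probe sets, and leaving out those at exactly 0.00, was added after seeing the data and moved none of the medians or counts of the family beyond these limits. Low signal limits most members: 85 of 133 had no probe set that reached the background limit, and 104 had a mean below it. The planned medians by number of fingers were not run, for want of protein sequences.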
